A study of Mus musculus with 6 samples.

Results

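Genes of cholesterol and fatty acid synthesis and of cholesterol export were followed in mouse spleen 24 h after whole-body irradiation. The set holds 30 genes, taken by their symbols from the 34741 named genes with a probe on the array, and all 30 were measured above background and tested, as were 26636 genes in all. By role they are 13 enzymes of sterol synthesis, 5 genes of the SREBP pathway that controls lipid synthesis, 8 enzymes of fatty acid synthesis, and 4 genes of cholesterol export and transport. The measured material was total RNA of homogenised whole splenocytes from B10.BALB-16.C2A mice, a congenic strain. One group received 900 cGy of total body irradiation (TBI) from an XRAD320 irradiator and was taken 24 h later; the other group, resting mice at 0 cGy, was not irradiated. Each group has 3 one-colour arrays, each hybridised with RNA pooled from 3 mice, so that p-values measure the spread between pools, and 3 arrays a group set the limit of precision. The labels used here give no age of the mice.

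Cells make cholesterol from acetyl-CoA through mevalonate, isoprenoids, squalene and lanosterol, and fatty acids from acetyl-CoA through malonyl-CoA. The transcription factors SREBP-1 and SREBP-2 drive these enzymes when membrane sterols are low; Scap escorts them to the Golgi for cleavage and the Insig proteins hold them in the endoplasmic reticulum. When sterols are abundant, liver X receptors (LXRs), which sense oxysterols, raise the export pumps Abca1 and Abcg1 and the lipid carrier Apoe. In the spleen, macrophages take up dying cells and worn red cells and must handle the cholesterol they bring, while dividing lymphoid and erythroid cells build new membrane.

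Sterol-regulated promoters of this kind usually carry a sterol regulatory element, which binds SREBP, beside CCAAT boxes, which bind NF-Y. The 250 bases before the annotated start of 6 of the genes are shown here because each holds at least 1 of the 3 motifs marked below and because they come from 3 of the roles. The sequences are those of RefSeq on build GRCm38.p6, written on the strand of the gene. Capitals mark each match to TCACNCCAC (sterol regulatory element), CCAAT (NF-Y box) or CACGTG (E-box) on either strand.
Hmgcs1, chr13:119690101-119690350, plus strand: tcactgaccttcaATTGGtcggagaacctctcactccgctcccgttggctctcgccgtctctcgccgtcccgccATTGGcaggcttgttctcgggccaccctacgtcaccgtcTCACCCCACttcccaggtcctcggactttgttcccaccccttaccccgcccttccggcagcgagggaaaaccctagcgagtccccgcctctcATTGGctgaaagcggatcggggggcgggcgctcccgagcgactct
Mvk, chr5:114444019-114444268, plus strand: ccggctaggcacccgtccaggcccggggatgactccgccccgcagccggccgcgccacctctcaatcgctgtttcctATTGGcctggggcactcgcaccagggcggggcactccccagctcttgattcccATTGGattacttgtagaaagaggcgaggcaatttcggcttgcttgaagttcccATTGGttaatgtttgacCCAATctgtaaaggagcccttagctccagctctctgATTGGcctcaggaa
Idi1, chr13:8885356-8885605, plus strand: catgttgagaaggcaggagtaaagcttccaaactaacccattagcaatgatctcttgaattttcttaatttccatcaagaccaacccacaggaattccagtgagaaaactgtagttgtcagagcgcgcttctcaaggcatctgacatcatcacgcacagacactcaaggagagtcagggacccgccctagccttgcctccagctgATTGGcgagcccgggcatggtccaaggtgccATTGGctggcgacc
Hsd17b7, chr1:169969206-169969455, minus strand: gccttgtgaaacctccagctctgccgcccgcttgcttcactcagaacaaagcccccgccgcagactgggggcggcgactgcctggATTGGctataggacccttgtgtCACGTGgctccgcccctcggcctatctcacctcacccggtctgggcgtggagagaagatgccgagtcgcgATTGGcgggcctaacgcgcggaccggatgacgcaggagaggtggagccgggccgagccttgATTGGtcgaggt
Insig1, chr5:28071162-28071411, plus strand: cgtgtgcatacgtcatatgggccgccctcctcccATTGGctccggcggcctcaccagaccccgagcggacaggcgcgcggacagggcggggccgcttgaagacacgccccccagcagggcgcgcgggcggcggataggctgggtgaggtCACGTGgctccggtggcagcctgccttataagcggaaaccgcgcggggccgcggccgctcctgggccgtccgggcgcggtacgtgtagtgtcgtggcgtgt
Abca1, chr4:53159896-53160145, minus strand: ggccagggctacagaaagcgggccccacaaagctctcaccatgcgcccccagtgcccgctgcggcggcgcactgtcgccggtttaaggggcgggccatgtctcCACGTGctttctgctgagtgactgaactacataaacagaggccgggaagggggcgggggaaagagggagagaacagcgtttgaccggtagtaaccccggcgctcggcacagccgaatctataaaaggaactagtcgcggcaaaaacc

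The RefSeq promoter table held 34 windows of 23 of the 30 genes. Of these genes, 17 had an NF-Y box in at least 1 window and 6 had an E-box, and these motifs did not overlap the sterol regulatory element in Hmgcs1. By window, an NF-Y box was in 18 of 34 (52.9%), against 33.8% of the 32851 windows in the table. An E-box was in 6 of 34 windows (17.6%), against 6.02% of all windows. The sterol regulatory element in the exact form searched was in 1 window, that of Hmgcs1, where it begins 137 bases before the start, against 1.05% of all windows. The LXR direct repeat with 4 bases between its repeats, searched in its ideal form, was in 0 of the 34 windows, against 0.0152% of all. A missing match says only that these exact letters are not in this window. No window was available for Sqle, Fdps, Fdft1, Scd1, Scd2, Abcg1 and Stard4, so the motifs were not searched in these genes.

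Of the 30 genes, 10 were higher and 7 were lower at 900 cGy, and 13 did not pass the test (limma, two-sided, adjusted p under 0.05 by Benjamini-Hochberg over all genes tested). The background was high: 28.3% of all genes tested were higher, 31.0% were lower, and 59.3% passed in either direction. The members' own shares, 33.3% higher and 23.3% lower, with 56.7% in either direction, lie near that background. The arrays at 900 cGy lay above all those at 0 cGy for 12 of the 30 genes and below them for 9, which is 70.0% of the genes beside 67.4% of all genes tested. By role, sterol synthesis had 1 gene higher and 6 lower of 13, the SREBP pathway 3 higher and 1 lower of 5, fatty acid synthesis 3 higher and 0 lower of 8, and export and transport 3 higher and 0 lower of 4; differences between the roles were not tested. The median log2 change was -0.29 for sterol synthesis, 0.38 for the SREBP pathway, 0.11 for fatty acid synthesis and 1.25 for export and transport, beside -0.06 over all genes tested.

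Levels below are log2 signals relative to the array's 75th percentile, so that 0 is the signal at that percentile, and changes are 900 cGy minus 0 cGy on that scale. Levels of different genes come from different probes and are not set against each other. Scaling the arrays to their spike-in control RNA in place of the 75th percentile lowers every log2 change by 0.28, including the median of all genes, and then 3 of the 30 genes (Abca1, Abcg1 and Apoe) were higher and 10 lower, with a median of -0.17 for fatty acid synthesis. By role the counts were then 0 higher and 8 lower for sterol synthesis, 0 and 1 for the SREBP pathway, 0 and 1 for fatty acid synthesis, and 3 and 0 for export and transport. All 6 arrays lie on 1 slide, with the 0 cGy arrays and 1 of the 900 cGy arrays in the first row and the other 900 cGy arrays in the second row; with slide row as a block in the fit, 5 of the 30 genes were higher (Abca1, Abcg1, Apoe, Acly and Srebf1) and 3 lower (Sqle, Idi1 and Srebf2). By role these were 0 higher and 2 lower for sterol synthesis, 1 and 1 for the SREBP pathway, 1 and 0 for fatty acid synthesis, and 3 and 0 for export and transport. The fit with slide row as a block, like the one of the first row alone, rests on the 1 array at 900 cGy in that row and takes its spread from the other arrays. In whole spleen, fewer cells of a type and less RNA per cell cannot be told apart.

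**Figure D1:**
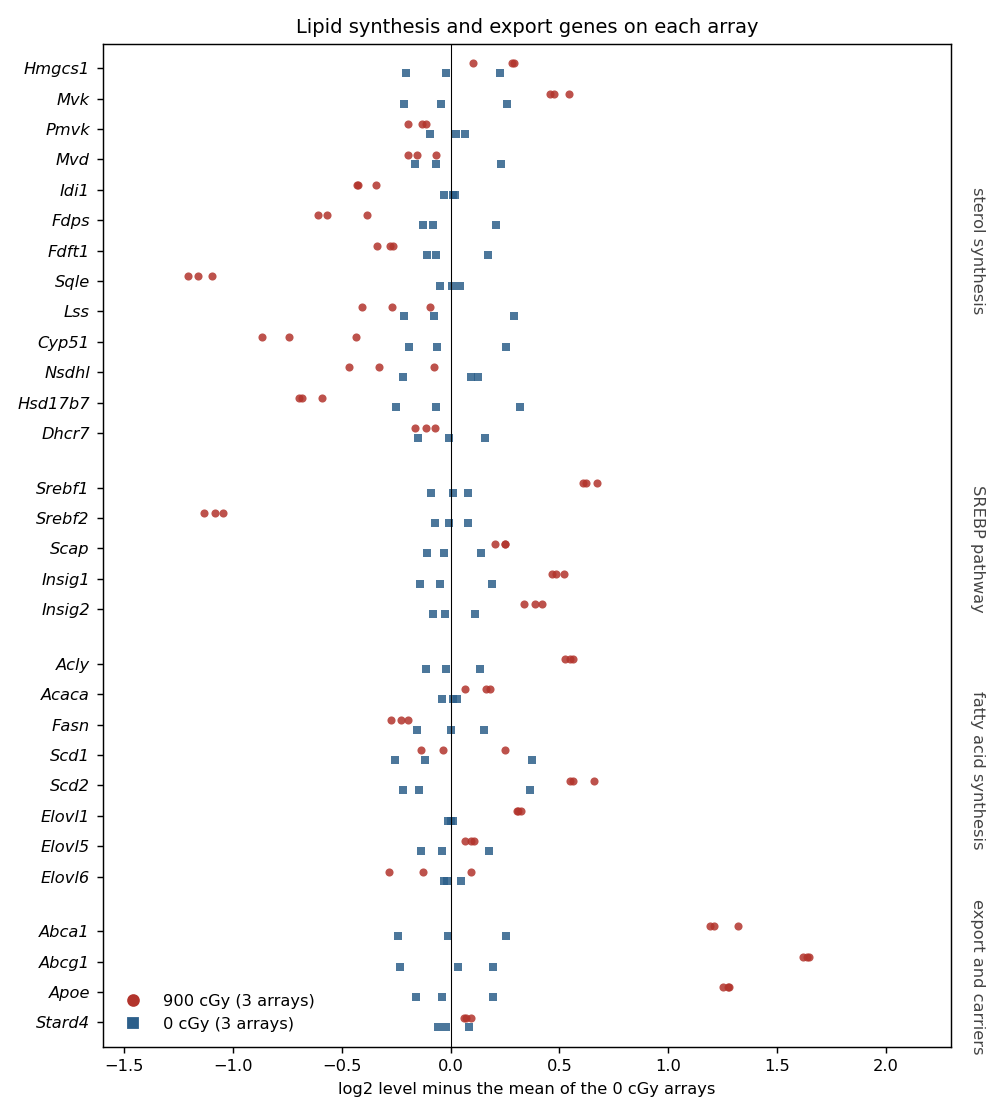
The log2 level of each of the 30 genes on each array, minus the mean of the 3 arrays at 0 cGy, with the arrays at 900 cGy as circles and those at 0 cGy as squares. The 3 arrays at 900 cGy lie close together for most genes, Sqle and Srebf2 lie over 1 log2 unit below that mean, and Abca1, Abcg1 and Apoe lie over 1 log2 unit above it.

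In sterol synthesis, the enzymes from isopentenyl to squalene epoxide were lower at 900 cGy on the probes used, with Sqle changed most. For Fdft1, within this stretch, the direction depends on the probe. Sqle encodes squalene epoxidase, the first oxygenation step and a rate-limiting one. It has 1 probe (chr15:59162688-59162747, mm9), so no second probe could be set beside it. The log2 levels were 0.25, 0.20 and 0.31 at 900 cGy, against 1.45, 1.36 and 1.41 at 0 cGy. All 900 cGy arrays were below all 0 cGy arrays, as were those of 35.7% of all genes tested. The change was -1.15 ± 0.08 (SE), which is 2.23-fold lower (limma adjusted p = 9.28e-05), and it passed the test under all 15 processing alternatives other than the 2 by slide row, and under those 2 as well.

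Upstream of Sqle, Idi1, the isomerase that makes the isoprenoid unit reactive, had levels of 1.12, 1.12 and 1.20 at 900 cGy, against 1.57, 1.52 and 1.56 at 0 cGy. Fdps, which joins isoprenoid units into farnesyl diphosphate, had levels of 2.53, 2.31 and 2.35 at 900 cGy, against 3.13, 2.79 and 2.84 at 0 cGy. The groups did not overlap for either gene, with changes of -0.40 ± 0.08 for Idi1 (limma adjusted p = 0.00423) and -0.52 ± 0.12 for Fdps (0.0106). Fdft1, squalene synthase, had levels of -0.20, -0.13 and -0.14 at 900 cGy, against 0.31, 0.03 and 0.07 at 0 cGy. Its change of -0.29 ± 0.10 was close to the threshold (limma adjusted p = 0.0435) and passed under 6 of the 17 alternatives. The other Fdft1 probe was higher, by 0.64 (adjusted p = 0.00239 in limma over all probes). With the mean of its probes the change was 0.17 (limma adjusted p = 0.171).

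Downstream of Sqle, Cyp51, the lanosterol demethylase, had levels of -2.33, -2.77 and -2.64 at 900 cGy, against -1.96, -2.09 and -1.64 at 0 cGy. Hsd17b7, which reduces the sterol ketone during removal of the methyl groups at carbon C-4, had levels of -2.95, -2.94 and -2.85 at 900 cGy, against -2.51, -2.33 and -1.94 at 0 cGy. Both fell without overlap, Cyp51 by 0.68 ± 0.16 (limma adjusted p = 0.0111) and Hsd17b7 by 0.66 ± 0.15 (0.0102) on the log2 scale. A second probe of Hsd17b7 changed by -0.78 (adjusted p = 0.00224 in limma over all probes), and its other probe by -0.07 (0.777). With slide row as a block the log2 changes of Cyp51, Hsd17b7, Fdps and Fdft1 were -0.43, -0.70, -0.39 and -0.34, of the same sign, and none passed the test.

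The remaining late enzymes of the set did not pass. Lss, lanosterol synthase, had levels of -1.80, -2.11 and -1.98 at 900 cGy, against -1.78, -1.92 and -1.42 at 0 cGy. Nsdhl, a dehydrogenase of the same demethylation steps as Hsd17b7, had levels of -1.84, -2.23 and -2.09 at 900 cGy, against -1.64, -1.98 and -1.67 at 0 cGy. The groups overlapped for both, with changes of -0.26 ± 0.16 for Lss (limma adjusted p = 0.203) and -0.29 ± 0.14 for Nsdhl (0.129). Dhcr7, which makes cholesterol in the last step of one branch, changed by -0.12 ± 0.10 (0.364), also with overlapping groups.

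Of the 4 genes of the set for the mevalonate steps at the head of the pathway, Mvk rose and Hmgcs1, Pmvk and Mvd did not pass the test. Mvk, mevalonate kinase, was the one sterol enzyme of the set that rose, with levels of 2.17, 2.19 and 2.26 at 900 cGy, against 1.499, 1.67 and 1.97 at 0 cGy. Its change was 0.49 ± 0.13 (limma adjusted p = 0.0178) without overlap, and its second probe changed by 0.40 (0.0340 over all probes). The call was lost under 6 of the 17 alternatives, including without 0 cGy replicate 2 and without 900 cGy replicate 2 or 3. Hmgcs1, the synthase that makes HMG-CoA and whose promoter holds the sterol regulatory element shown above, had levels of 3.34, 3.15 and 3.33 at 900 cGy, against 2.84, 3.03 and 3.27 at 0 cGy. The groups overlapped through 0 cGy replicate 3, and the change of 0.23 ± 0.13 did not pass (limma adjusted p = 0.184). It passed under 1 of the 17 alternatives, that without this replicate, at 0.34 (limma adjusted p = 0.0356). With spike-in scaling it was -0.06, and with the mean of its probes, the other of which was not above background, it was -0.12.

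Pmvk, phosphomevalonate kinase, had levels of 2.98, 2.89 and 2.95 at 900 cGy, against 3.15, 3.11 and 2.99 at 0 cGy. The groups did not overlap, and the change of -0.15 ± 0.08 did not pass (limma adjusted p = 0.171), while a second probe of Pmvk changed by -0.23 (0.0430 over all probes). Mvd, the decarboxylase that follows, changed by -0.14 ± 0.12 (0.363) with overlapping groups.

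Set in the order of the pathway together with 7 further enzymes, 3 of 20 genes were higher, 8 were lower and 9 did not pass. Of all genes tested, 28.3% were higher and 31.0% lower. The further enzymes, listed with earlier results of these data known, had 2 higher, 2 lower and 3 not past the test. Lbr changed most, by -2.0 ± 0.21 (limma adjusted p = 0.000359); it encodes a sterol reductase that is also a protein of the nuclear envelope. Ebp, the isomerase late in the pathway, was higher by 0.48 ± 0.08 (0.00306), and Ggps1, which makes geranylgeranyl diphosphate on a side branch, was lower, with a change of -0.31 ± 0.08 (0.0134).

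**Figure D2:**
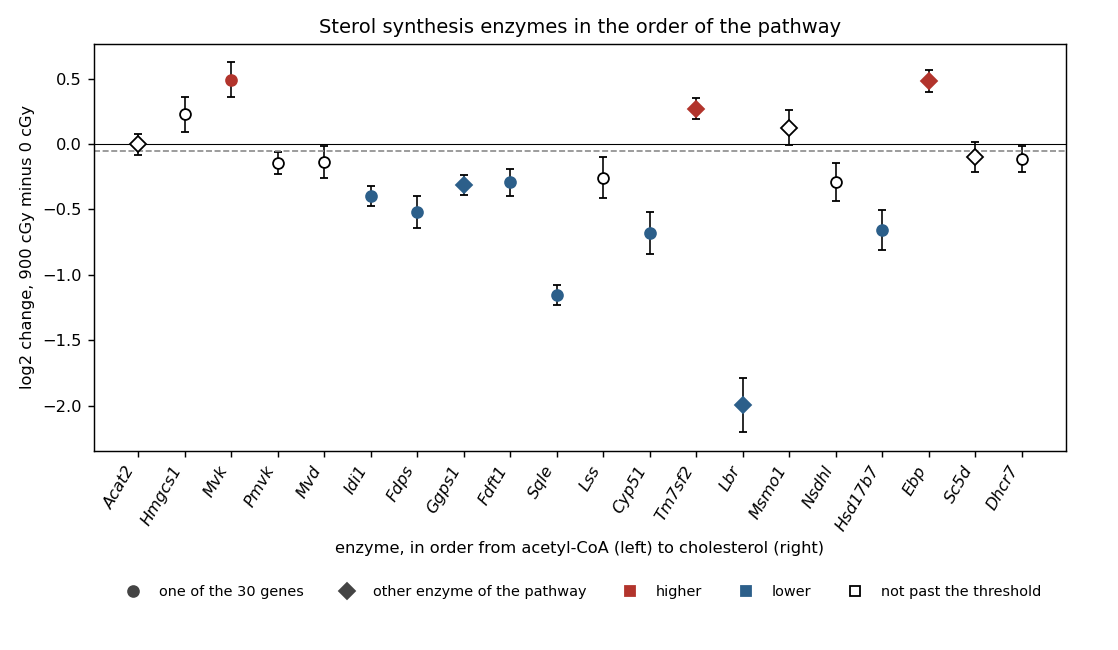
Log2 change (900 cGy minus 0 cGy, bars are standard errors) of 20 sterol synthesis enzymes in the order of the pathway, with acetyl-CoA at the left. Red is higher, blue is lower and open is not past the test; circles are genes of the set and diamonds the 7 further enzymes, and the dashed line is the median of all genes tested (-0.06). Lbr (-2.0) and Sqle (-1.15) lie lowest, and Mvk (0.49) and Ebp (0.48) highest; with spike-in scaling every point would lie 0.28 lower and Mvk would not pass the test.

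Markers of dividing cells and of red cell precursors were lower at 900 cGy. All 6 dividing-cell markers tested were lower, with summed linear signals of 9.71 to 10.7 times the 75th percentile at 900 cGy, against 44.7 to 128 at 0 cGy. All 7 markers of red cell precursors were lower (1.27 to 1.65 at 900 cGy, against 55.4 to 177 at 0 cGy), as were all 7 of B cells (39.6 to 44.7 against 244 to 312) and all 8 of T cells (15.6 to 17.0 against 49.95 to 73.5). Their part in the sterol results was not tested. Within the 0 cGy group, replicate 3 had the lowest sums of dividing-cell markers (44.7) and red cell precursor markers (55.4), and replicate 1 the highest (128 and 177). The sums of B cell markers (312) and T cell markers (73.5) were highest in replicate 3. The median sterol synthesis gene was 0.23 higher in replicate 3 than the mean of the other replicates. So were the medians of the SREBP pathway (0.16), fatty acid synthesis (0.22) and export and transport (0.29), beside -0.0021 over all genes tested. The sterol genes called lower at 900 cGy differed in this. Within the 0 cGy group, Cyp51 and Hsd17b7 were highest in replicate 3, and Sqle, Idi1, Fdps and Fdft1 in replicate 1.

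In the SREBP pathway, the factors themselves moved apart on the probes used. Srebf1, which encodes SREBP-1, had log2 levels of -1.45, -1.50 and -1.51 at 900 cGy, against -2.11, -2.21 and -2.04 at 0 cGy. All 900 cGy arrays were above all 0 cGy arrays, as were those of 31.7% of all genes tested. The change was 0.63 ± 0.08 (limma adjusted p = 0.000881), and it passed under 16 of the 17 alternatives, the exception being spike-in scaling, with a change of 0.35 (0.143).

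Srebf2, which encodes SREBP-2, the main driver of sterol synthesis, had levels of 0.16, 0.20 and 0.11 at 900 cGy, against 1.17, 1.23 and 1.32 at 0 cGy. The change on this probe was -1.09 ± 0.08 (limma adjusted p = 0.000118). A second Srebf2 probe, which starts 4697 bases upstream, gave the opposite: 0.23, -0.18 and 0.10 at 900 cGy, against -1.13, -1.18 and -0.92 at 0 cGy. Neither probe's groups overlapped, and the second changed by 1.12 (adjusted p = 0.000679 over all probes). The mean of the probes was 0.02 higher at 900 cGy (0.886), so the direction of Srebf2 depends on the probe.

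The first 30 bases of the probes of Srebf2 and Elovl1 are printed because the sign of the change depends on which probe is read. All probes are 60 bases long, and positions are those of the files, on mm9.
Srebf2, probe used, chr15:82034765-82034824: aactaggtctttgcaccagagagcattttg
Srebf2, other probe, chr15:82030068-82030127: atccagctgttcacctgtgacctgctactg
Elovl1, probe used, chr4:118105163-118105222: ggcctggaagtcaggctgtgcgctcacttg
Elovl1, other probe, chr4:118104741-118104800: attgcccacctaagtgcctcaggactgcac

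Both probes of Srebf2 carry the same RefSeq accession in the files. The exon or untranslated region under each probe was not analysed here. The other probe of Fdft1 had levels of -4.05, -3.85 and -4.05 at 900 cGy, against -4.52, -4.74 and -4.61 at 0 cGy, and changed by 0.64 (adjusted p = 0.00239 over all probes), against -0.29 for the probe used. The other probe of Elovl1 changed by -0.27 (0.0652), against 0.31 for the probe used. Of 12 genes of the set with more than 1 probe, 11 had several probes above background; in 6 of these all such probes changed in the same direction, and in 5 they did not (Srebf2, Fdft1, Elovl1, Stard4 and Nsdhl).

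**Figure D3:**
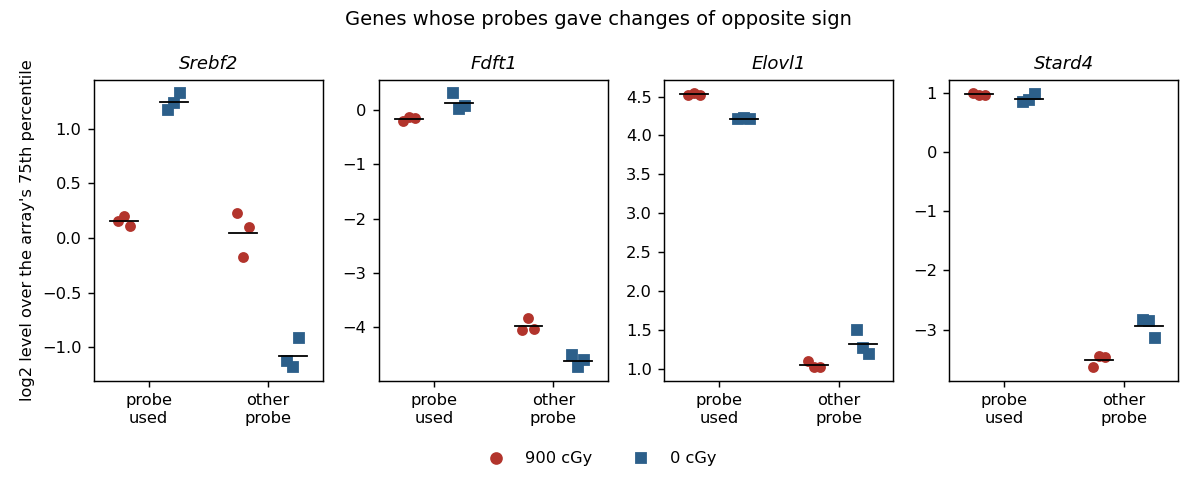
Log2 levels over the array's 75th percentile on each array for both probes of Srebf2, Fdft1, Elovl1 and Stard4, with 900 cGy as circles left of 0 cGy as squares and the group means as lines. For Srebf2 the probe used is lower at 900 cGy (-1.09) and the other probe higher (1.12), and for the other 3 genes the probes also differ in the sign of the change.

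The regulators that hold SREBP back were higher. Insig1 had levels of -1.95, -1.93 and -1.90 at 900 cGy, against -2.56, -2.46 and -2.23 at 0 cGy. Insig2 had levels of 1.30, 1.36 and 1.39 at 900 cGy, against 0.89, 0.94 and 1.08 at 0 cGy. Neither gene's groups overlapped, with changes of 0.49 ± 0.11 for Insig1 (limma adjusted p = 0.00747) and 0.38 ± 0.09 for Insig2 (0.009), and a second Insig2 probe changed by 0.50 (0.0112 over all probes). With slide row as a block the changes were 0.47 (0.0675) for Insig1 and 0.34 (0.0926) for Insig2, and with spike-in scaling they were 0.21 (0.381) and 0.10 (0.684).

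Scap, the escort of SREBP, had levels of 3.89, 3.94 and 3.94 at 900 cGy, against 3.58, 3.65 and 3.82 at 0 cGy. The groups did not overlap, and the change of 0.23 ± 0.09 did not pass (limma adjusted p = 0.0671); without 0 cGy replicate 3 it was 0.30 (0.0137), and with spike-in scaling it was -0.05. Of 13 genes of SREBP cleavage and of lipoprotein uptake, hydrolysis and storage, 8 were higher and 0 lower. Those that passed made up 61.5%, beside 59.3% of all genes tested. The largest changes were those of the lipoprotein receptors Vldlr and Lrp1, 2.07 each (limma adjusted p = 5.89e-05 and 7.08e-05), and of Lipa, the lysosomal acid lipase that frees cholesterol from taken-up lipoproteins, at 1.86 (5.66e-05). The proteases that cleave SREBP, Mbtps1 and Mbtps2, changed by -0.02 (0.834) and 0.21 (0.4).

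In fatty acid synthesis, the enzyme that supplies acetyl-CoA was higher while the synthase itself did not pass. Acly, ATP citrate lyase, had levels of 4.45, 4.48 and 4.47 at 900 cGy, against 3.81, 3.90 and 4.06 at 0 cGy. All 900 cGy arrays were higher, with a change of 0.54 ± 0.09 (limma adjusted p = 0.00259), while a second probe of Acly changed by 0.11 (0.36 over all probes). With spike-in scaling the Acly change was 0.26 (0.259). Acaca, which makes malonyl-CoA, had levels of 2.13, 2.04 and 2.15 at 900 cGy, against 1.98, 1.93 and 1.9992 at 0 cGy. The change was 0.14 ± 0.08 (limma adjusted p = 0.177), without overlap. Its further probes above background changed by 0.06 (0.596 in limma over all probes) and 0.10 (0.371), with overlapping groups. Fasn, fatty acid synthase, had levels of -1.58, -1.53 and -1.50 at 900 cGy, against -1.46, -1.31 and -1.15 at 0 cGy. All its 900 cGy arrays were lower and the change of -0.23 ± 0.10 did not pass (limma adjusted p = 0.092); with spike-in scaling it did, at -0.52 (0.0298).

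The stearoyl-CoA desaturases, which put a double bond into saturated acyl chains, gave different values. Scd2, the form known from brain and other tissues outside the liver, had levels of 3.50, 3.41 and 3.39 at 900 cGy, against 2.70, 2.63 and 3.21 at 0 cGy. Scd1, the form most studied in liver and fat, had levels of 2.62, 2.72 and 3.00 at 900 cGy, against 2.50, 2.64 and 3.13 at 0 cGy. The groups did not overlap for Scd2, which changed by 0.59 ± 0.16 (limma adjusted p = 0.0207; past the threshold under 9 of 17 alternatives), and they overlapped for Scd1, which changed by 0.03 ± 0.19 (0.917). Cross-hybridisation between these similar genes was not tested.

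Among the elongases, which lengthen fatty acids, Elovl1 had levels of 4.53, 4.54 and 4.52 at 900 cGy, against 4.22, 4.23 and 4.20 at 0 cGy, a change of 0.31 ± 0.07 (limma adjusted p = 0.00923). The groups did not overlap, but as described above its other probe went the opposite way. Elovl5, which acts on polyunsaturated chains, changed by 0.09 ± 0.10 (0.493), and Elovl6, which acts on saturated chains made by Fasn, by -0.11 ± 0.11 (0.453); the groups overlapped for both.

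Of 18 further genes of fatty acid synthesis that were tested, 9 were higher, 2 lower and 7 not past the test. Those that passed made up 61.1%, beside 59.3% of all genes tested. Elovl3 and Elovl4 were not tested because they were not well above background on all arrays of either group. The largest changes were those of Thrsp, a lipogenic nuclear protein (2.83 ± 0.18, limma adjusted p = 7.78e-05), of Me1, the malic enzyme that supplies NADPH (1.97 ± 0.15, 0.000131), and of Acacb, the mitochondrial acetyl-CoA carboxylase (1.88 ± 0.11, 6.83e-05). Of 9 genes of triglyceride synthesis, 6 were higher and 0 lower, led by Mogat1 (2.33), Dgat2 (1.87) and Lpin3 (1.41), all enzymes that assemble triglyceride. Of 11 genes of fatty acid oxidation, 5 were higher and 0 lower, led by Acadm (0.64), Cpt2 (0.52) and Acadvl (0.41). The share past the test was 66.7% for triglyceride synthesis and 45.5% for fatty acid oxidation, beside 59.3% of all genes tested.

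Markers of fat cells and of exocrine pancreas were higher in the same arrays. All 8 adipocyte markers were higher, with summed linear signals of 92.2 to 99.7 times the 75th percentile at 900 cGy, against 5.70 to 9.76 at 0 cGy. All 8 exocrine pancreas markers were higher (876 to 1161 at 900 cGy, against 0.759 to 90.6 at 0 cGy). The number of pancreas markers past the test fell markedly under 5 of the 17 processing alternatives, and that of adipocyte markers under none. Of 4 liver markers tested, 2 were higher, and Alb and Apoa1 were not well above background on any array. The part of these cell types in the fatty acid and triglyceride results was not tested.

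The export genes gave the largest rises of the set. Abca1, the pump that loads cholesterol onto lipid-poor apolipoprotein, was measured by a probe at chr4:53043944-53044003 (mm9) and had levels of 3.24, 3.11 and 3.13 at 900 cGy, against 1.68, 1.90 and 2.17 at 0 cGy. Abcg1, which passes cholesterol to lipoprotein particles, had levels of 5.09, 5.08 and 5.06 at 900 cGy, against 3.21, 3.48 and 3.64 at 0 cGy (probe at chr17:31252580-31252639). Apoe, the secreted lipid carrier, had levels of 7.60, 7.58 and 7.61 at 900 cGy, against 6.29, 6.17 and 6.52 at 0 cGy (probe at chr7:20281732-20281791). For these genes every array at 900 cGy lay above every array at 0 cGy. Each has 1 probe, so no second probe could be set beside it. The SD was 0.07 for Abca1, 0.02 for Abcg1 and 0.01 for Apoe at 900 cGy, against 0.25, 0.22 and 0.18 at 0 cGy, and the median SD over all genes tested was likewise smaller at 900 cGy (0.0936, against 0.172 at 0 cGy).

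Abcg1 was 3.10-fold higher, a log2 change of 1.63 ± 0.12 (limma adjusted p = 0.000117). Apoe was 2.41-fold higher (1.27 ± 0.11, 0.00018) and Abca1 was 2.36-fold higher (1.24 ± 0.14, 0.000454). Each passed under the 15 alternatives that do not use slide row, spike-in scaling included, and under the 2 by slide row, with changes over all 17 of 1.35 to 1.73 for Abcg1, 0.98 to 1.40 for Apoe and 0.96 to 1.37 for Abca1. Stard4, which moves cholesterol between membranes inside the cell, had levels of 0.99, 0.97 and 0.96 at 900 cGy, against 0.84, 0.87 and 0.98 at 0 cGy. The groups overlapped and the change of 0.08 ± 0.08 did not pass (0.446), while a second probe of Stard4 changed by -0.58 (0.00608 over all probes).

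**Figure D4:**
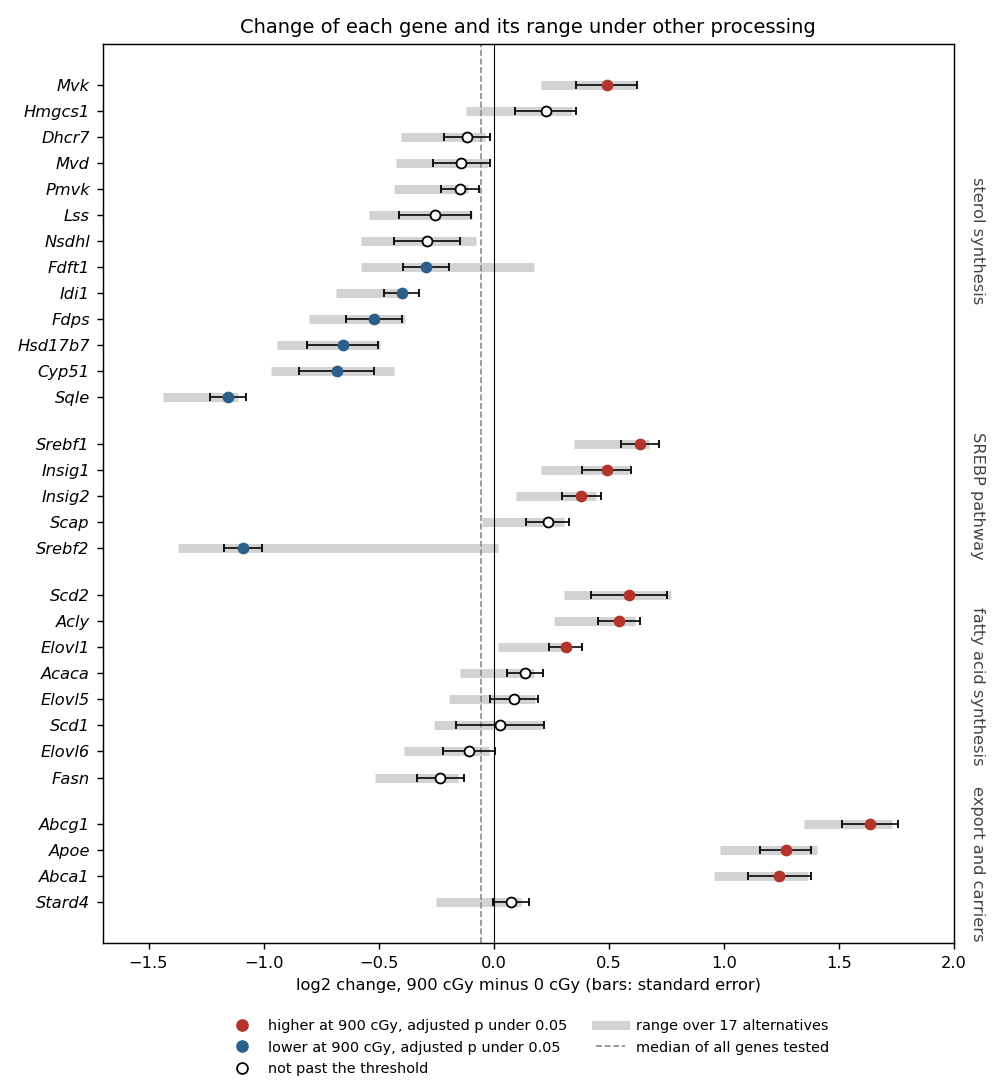
Log2 change (900 cGy minus 0 cGy) of the 30 genes with standard errors, red where higher, blue where lower and open where the test was not passed; grey bands give the range over 17 processing alternatives and the dashed line the median of all genes tested. The bands of Abca1, Abcg1, Apoe and Sqle stay far from 0, and those of Srebf2, Fdft1, Hmgcs1, Scap, Stard4, Acaca, Scd1 and Elovl5 cross it. Abca1, Abcg1, Apoe and Sqle have 1 probe each, so averaging the probes of a gene cannot widen their bands.

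Of 17 further genes of the LXR pathway and of lipid efflux that were tested, 10 were higher, 4 lower and 3 not past the test. Those that passed made up 82.4%, beside 59.3% of all genes tested. Nr1h3, which encodes LXR-alpha, was higher by 1.90 ± 0.10 (limma adjusted p = 5.89e-05), as was Lpl, lipoprotein lipase (1.90 ± 0.10, 5.97e-05). Abcg4, a half-transporter related to Abcg1, went the other way, with levels of -2.03, -1.96 and -1.85 at 900 cGy, against 3.21, 2.81 and 0.91 at 0 cGy. Its change was -4.26 ± 0.57 (0.000968), and 0 cGy replicate 3 lay far below the other 0 cGy arrays. Of 11 oxysterol-binding and sterol carrier genes, 6 were higher and 2 lower, which is 72.7% past the test. Among these, Stard5 (1.38) and Stard6 (0.82) rose most and Gramd1a (-0.74) fell.

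Macrophage markers rose in the same arrays as the export genes. All 10 were higher, with summed linear signals of 671 to 698 times the 75th percentile at 900 cGy, against 172 to 181 at 0 cGy, a ratio of means of 3.86. The part of macrophage number in the export results was not tested. The macrophage sums of the 0 cGy arrays were 179, 172 and 181. Within that group, the median of the 4 export and transport genes, Stard4 included, was 0.29 higher in replicate 3 than in the mean of the other replicates. This rests on that array alone, and its relation to macrophage number was not tested. The other roles were higher there too, by 0.23 for sterol synthesis, 0.16 for the SREBP pathway and 0.22 for fatty acid synthesis. Over all genes tested this median was -0.0021.

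Differences between 2 genes on the same array do not depend on how arrays are scaled, and 4 pairs of related genes were compared in this way, chosen with their values known. The log2 change of Srebf1 exceeded that of Srebf2 by 1.72 on the probes used, but with the other Srebf2 probe the difference turned to -0.49. The change of Scd2 exceeded that of Scd1 by 0.56, that of Abcg1 exceeded that of Abca1 by 0.39, and that of Insig1 exceeded that of Insig2 by 0.11. A second Insig2 probe changed by 0.503, more than Insig1 at 0.491, so the Insig difference also depends on the probe. On the probes used, in each pair the within-array differences of the groups did not overlap. The share of other gene pairs without overlap was not computed, and among single genes tested 67.4% had groups without overlap. For Insig1 minus Insig2 the nearest values were -3.287 at 900 cGy and -3.304 at 0 cGy. Each exact permutation test gave a two-sided p of 0.1, the smallest that 3 arrays against 3 allow. After Benjamini-Hochberg adjustment over the 4 pairs it was also 0.1.

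**Figure D5:**
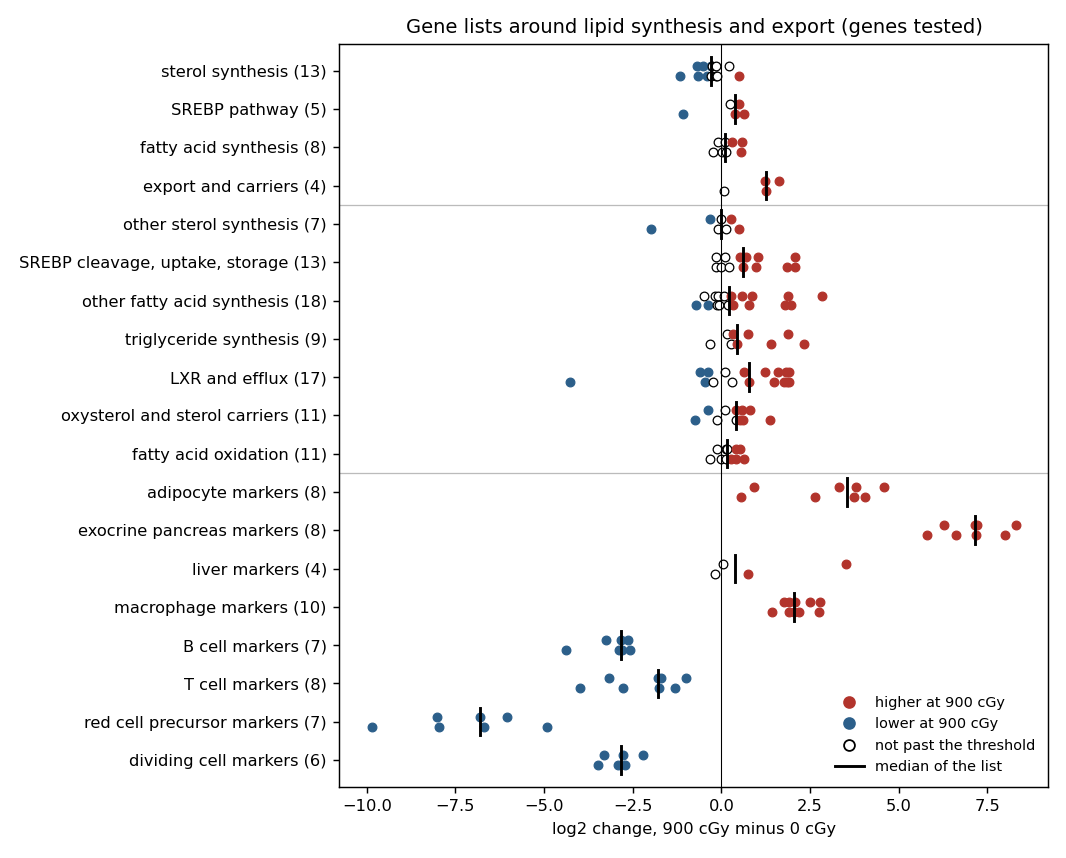
Log2 change (900 cGy minus 0 cGy) of each tested gene of the set by role, of the 7 lists of further lipid genes, and of the 8 marker lists; red is higher, blue is lower, open is not past the test, and the black line is the list's median. The further lipid genes had 46 higher and 10 lower of 86 tested (24 higher and 15 lower with spike-in scaling), macrophage, adipocyte and exocrine pancreas markers lie to the right, and markers of B cells, T cells, red cell precursors and dividing cells lie to the left.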

How the data were processed

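The 6 arrays are Agilent one-colour mouse arrays. Agilent Feature Extraction 10.5.1.1, named in the file headers and processing notes of the submitters, gave the deposited intensity of each of 62976 spots. Per the file headers, background and spatial trend had been removed from it, weak spots hold surrogate values, which compress folds of dim genes, and arrays were not normalized to each other. The authors' deposited log2 value table served as an alternative.

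From the log2 processed intensity, that of the array's own 75th percentile was subtracted, taken over the 59305 non-control spots (1114 to 1403). Control spots and 91 to 146 outlier spots per array were dropped, and repeat spots of a probe averaged. Between 39036 and 41267 probes per array were well above background, and no spot was saturated. Names came from the files, updated through RefSeq (GRCm38.p6); probe positions are mm9. A gene was represented by its probe with the highest mean, and tested if it passed the scanner software's test for being well above background on the 3 arrays of at least 1 group. limma 3.58.1 in R 4.3.3 (lmFit, eBayes) compared the groups, with Benjamini-Hochberg adjustment and a threshold of 0.05; a second fit over all probes gave the values of further probes. The script was tested on simulated data.

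Members and lists were chosen with earlier results of these data known. All 30 members are named, and the 3 genes with the largest change among those past the threshold in each further list; the SREBP proteases, named beyond these, the pairs of related genes and the promoters printed were chosen after their values were seen. Groups and replicate numbers came from the titles. Same-numbered arrays had correlations of deviations of 0.0732, 0.117 and -0.00218, so the numbers were not taken as pairs. Results of a few items are not reported here.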

Additional observations from a re-analysis of the deposited data

How the results depend on the processing

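The 30 genes were refitted under 17 alternatives. The mean of all probes cannot move genes with 1 probe, among them Sqle, Abca1, Abcg1 and Apoe. Sqle, Abca1, Abcg1 and Apoe kept their direction and passed the test in the 15 that do not use slide row, and in the 2 that do. Counts of 10 higher and 7 lower became 3 and 10 with spike-in scaling, 5 and 3 with slide row as a block, and 4 and 2 in slide row 1 alone; both slide-row fits rest on the 1 array at 900 cGy in that row, assumed to vary like the others; leaving out 1 array gave 8 to 12 higher and 6 to 7 lower. With the replicate block, 10 were higher and 6 lower. The median change of the members, 0.05, was -0.0044 after quantile normalization, -0.23 with spike-in scaling, 0.0128 with slide row as a block or row 1 alone, and -0.0312 to 0.134 when 1 array was left out. Signs turned for Scd1 (quantile normalization -0.0288, spike-in scaling -0.26, slide row as a block or row 1 alone -0.14, leaving out 1 array -0.10 to 0.21), with spike-in scaling for Acaca (-0.15), Elovl5 (-0.20), Hmgcs1 (-0.0588), Scap (-0.0503) and Stard4 (-0.21), and with the mean of all probes for Fdft1 (0.17), Hmgcs1 (-0.12), Srebf2 (0.0178) and Stard4 (-0.25, adjusted p = 0.0299). The further lipid genes, 46 higher and 10 lower, became 24 and 15 with spike-in scaling, 26 and 2 in row 1 alone, had 4 lower with slide row as a block, and 6 lower without 900 cGy replicate 2. Over all genes tested, 7533 higher and 8255 lower became 4797 and 10813 with spike-in scaling (30.7% of calls higher, against 47.7%) and 4466 and 3929 in row 1 alone. By construction, spike-in scaling shifts every gene by the same amount. The cause of that amount and of the other differences was not tested. Each of the 30 probes used was well above background on all 6 arrays.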
